A study of Saccharomyces cerevisiae with 2 samples.

Results

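The genes of the core histones and of the 2 histone variants of budding yeast are described here as the arrays measured them: HTA1, HTB1, HTA2, HTB2, HHT1, HHF1, HHT2, HHF2, HTZ1 and CSE4. They were found by name among the probe annotations, and a probe between divergent genes was counted for both genes of the pair. All 10 were on the array, out of 5689 gene names, and 32 of its 41775 yeast probes belonged to them. Of these probes, 17 lay in divergent promoters, 2 in an ordinary promoter, 8 in coding regions and 5 downstream of a gene. There were 2 replicate arrays in 1 group, both of strain MDY510, in which histone H3 carries a Myc tag. The cells were arrested with alpha factor, a pheromone that stops them in G1, and galactose was not added. Chromatin precipitated with an anti-Myc antibody (IP) is labelled as the Cy5 channel of each array, and sonicated input, called whole cell extract (WCE), as the Cy3 channel. The question is how much H3 each region carries, here for the genes that encode the histones themselves. The labels give no other genotype: they do not say which H3 gene carries the tag, how many untagged H3 genes the strain keeps, or whether the replicates came from separate cultures.

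Nucleosomes hold pairs of each core histone, H2A, H2B, H3 and H4, with DNA wrapped around them. Yeast keeps duplicate genes for each core histone, arranged as divergent pairs that share a promoter: HTA1 and HTA2 encode H2A, HTB1 and HTB2 H2B, HHT1 and HHT2 H3, and HHF1 and HHF2 H4. These genes are transcribed as cells enter S phase, through the activator Spt10 and the G1/S factors SBF and MBF, and all pairs but HTA2-HTB2 are repressed at other times through the HIR complex. HTZ1 encodes H2A.Z, the H2A variant found next to many promoters, and CSE4 encodes the centromeric variant of H3. Both variants are single genes. Whether a coding probe of one copy of a duplicate gene also binds DNA of the other was not checked. Values of such probes are therefore uncertain as to the copy.

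The 2 arrays agreed closely, with r = 0.992 across kept probes, which are not independent, and a common between-array SD of 0.05 per probe. All ratios below are log2 of Cy5 over Cy3, centred so that the median probe of each array is 0, and values after ± are SDs over the 2 arrays. The channel labels were checked with mitochondrial DNA, which carries no histones, and the check went against them: its probes lay 4.84 ± 0.10 above nuclear probes in this ratio. Relative to nuclear probes they were dimmer in both channels, at -0.61 ± 0.01 in Cy5 and -5.03 ± 0.03 in Cy3 on the log2 scale. A positive ratio is therefore described as brighter in the channel labelled IP, and with exchanged channels all signs below would be the opposite. Each probe, coding region and promoter was tested against 0 with limma over the whole array, and "higher" and "lower" mean an adjusted p under 0.05. The p-values reflect only how far these 2 arrays lie apart, a spread that may be technical, and an exact test on 2 arrays cannot go below 0.5. For probes, coding regions and promoters, limma used an SD common to all features of that kind, 0.052, 0.032 and 0.045. A feature's own spread did not enter those p-values. The coding SD comes mostly from genes with several probes, so p-values of coding regions with 1 probe are likely too small. Both arrays shared 1 slide, so no batch could be tested.

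Of the 32 histone gene probes, 31 were kept, and 23 of them were higher, 5 lower and 3 did not pass. Over all 40890 kept probes 39.4% were higher and 39.4% lower. The divergent promoter probes had a median ratio of 0.65, against 0.32 over all divergent promoter probes, and 13 of 16 were higher and 3 lower, where 73.9% and 14.5% of that class were. The coding probes had a median of 0.36, against -0.04 over all coding probes, and 7 of 8 were higher and none lower, where 30.7% and 45.4% of that class were. Downstream probes had a median of 0.35, against -0.01 over all downstream probes, and 3 of 5 were higher and none lower, where 39.5% and 43.0% were. Both probes of the ordinary promoter, that of CSE4, were lower, at a median of -0.63 against 0.19 over that class, of which 61.9% were higher and 23.4% lower. The sign was the same on both arrays for 30 of the 31 probes, and the largest SD between arrays was 0.17.

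**Figure D1:**
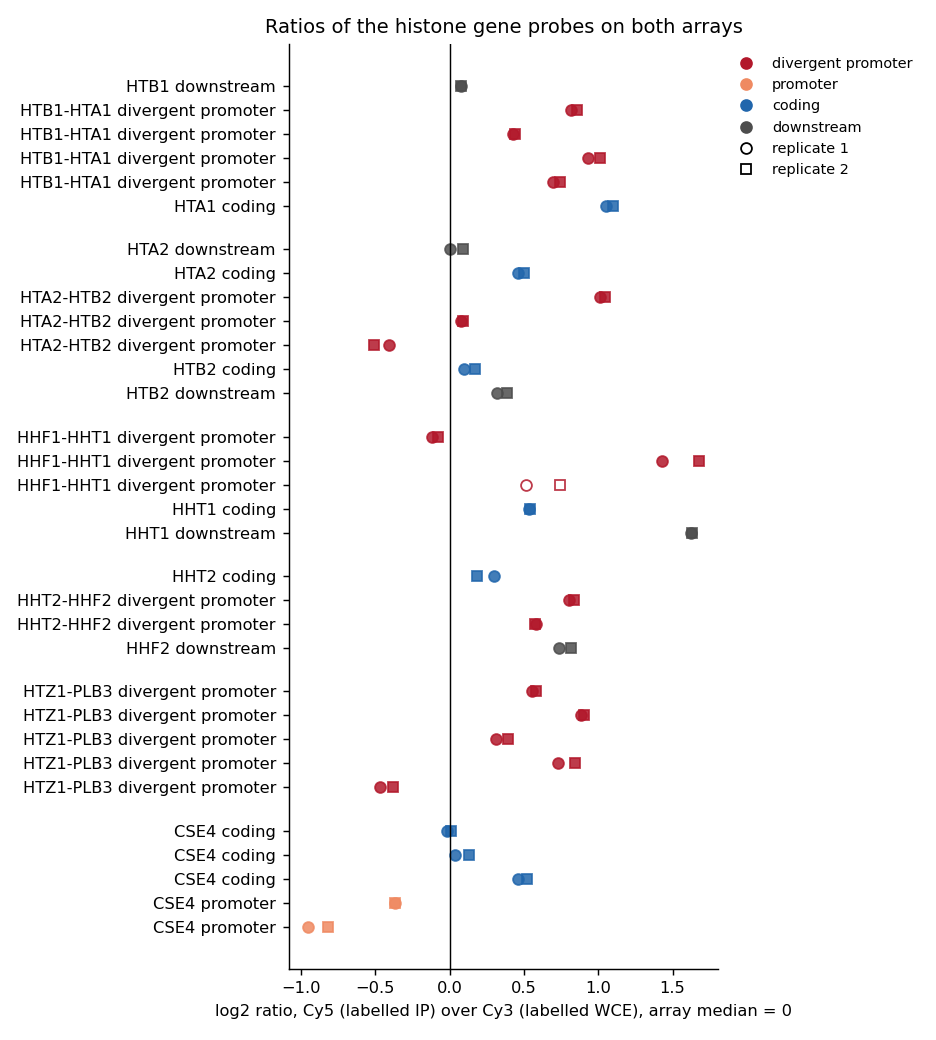
Log2 ratio of Cy5 (labelled IP) over Cy3 (labelled WCE) for each of the 32 histone gene probes, in map order within each locus; circles are replicate 1 and squares replicate 2, colours give the probe class, and open symbols mark the probe left out. Most probes lie right of 0 on both arrays, while both CSE4 promoter probes, the HTB2-side probe of HTA2-HTB2, the PLB3-side probe of HTZ1-PLB3 and the HHF1-side probe of HHF1-HHT1 lie left of it.

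The genes of H2A and H2B come in 2 divergent pairs, and the pair with HTA1 had the higher promoter mean and the higher H2A coding ratio. HTB1-HTA1 (YDR224C and YDR225W) lies on chromosome 4, where its probes run from 914134 to 915729 in the array's coordinates, of a build that the sources used here do not give. Its 4 promoter probes, from the HTB1 side to the HTA1 side, had mean ratios of 0.84, 0.43, 0.97 and 0.72, and each was higher. The third of these probes was saturated in Cy5 on both arrays, where its processed signals were 2956 and 2904, against 1526 and 1443 in Cy3, so its ratio is compressed. As a mean of the 4 probes the promoter had 0.72 in replicate 1 and 0.76 in replicate 2. Both arrays thus placed it well above 0, at 0.74 ± 0.03 or 1.67-fold (limma adjusted p = 2.10e-110), and 11.2% of 5175 promoters were higher still.

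HTA1, which encodes one of the copies of H2A, had the highest coding ratio among the histone genes. Its single coding probe, at 915670 to 915729, had signals of 1428 and 1313 in Cy5, against 678 and 614 in Cy3. The ratio was 1.05 in replicate 1 and 1.10 in replicate 2, so Cy5 was the brighter channel on both arrays by about the same factor. The mean was 1.08 ± 0.04, or 2.11-fold, and 0.732% of 5465 coding regions had a higher one. At the other end of the locus, the probe downstream of HTB1, the H2B gene of this pair, had signals of 1996 and 1727 in Cy5, against 1864 and 1644 in Cy3. Its ratio of 0.07 on each array did not pass (limma adjusted p = 0.0545), but it did without centring, at 0.08 (adjusted p = 0.0162), and without saturated probes, at 0.09 (adjusted p = 0.00284). HTB1 has no coding probe on the array.

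The second H2A-H2B pair, HTA2-HTB2 (YBL003C and YBL002W) on chromosome 2 with probes from 235274 to 236968, had a promoter whose probes differed in sign. From the HTA2 side to the HTB2 side its 3 promoter probes had 1.03 ± 0.03, 0.08 ± 0.01 and -0.46 ± 0.07, the first 2 higher and the last lower. The HTA2-side probe had signals of 2571 and 2493 in Cy5, against 1255 and 1209 in Cy3, whereas the HTB2-side probe had 875 and 640 in Cy5, against 1141 and 915 in Cy3. The channels were thus ordered in opposite ways at these 2 probes, on both arrays. Both are promoter probes by the array's annotation, and whether the HTA2-side one lies upstream of the HTA2 start codon was not checked, so the range and the mean below rest on that annotation. The range over its probes was 1.49, and 3.35% of the 239 divergent promoters with 3 kept probes had a range at least as large, their median being 0.57. The middle probe's call was lost when ratios were centred on the mode of each array (0.07, adjusted p = 0.413) and with local background subtraction (0.06, adjusted p = 0.120), a setting chosen after seeing the data.

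As a mean the HTA2-HTB2 promoter had 0.23 in replicate 1 and 0.21 in replicate 2, at 0.22 ± 0.01 (limma adjusted p = 2.94e-11), near the middle of all promoters, of which 51.8% had more. This mean depended on which probes entered. With probes of 60 nt only, also chosen after seeing the data, it was 0.59, since the lowest probe is shorter, and with the median over probes it was 0.08. The HTA2 coding probe had signals of 2285 and 2232 in Cy5 against 1631 and 1583 in Cy3, a ratio of 0.46 in replicate 1 and 0.50 in replicate 2. That of HTB2 had 1257 and 1296 in Cy5 against 1159 and 1155 in Cy3, a ratio of 0.09 in replicate 1 and 0.17 in replicate 2. Both coding regions were higher, HTA2 at 0.48 ± 0.03 and HTB2 at 0.13 ± 0.05 (adjusted p = 3.33e-92 and 1.98e-08 in limma). As single probes they had adjusted p = 2.73e-38 and 0.000514 in limma. The call of the HTB2 coding region was lost when centred on the mode (0.11, adjusted p = 0.102). Downstream of the genes, the probe of HTB2 was higher at 0.35 ± 0.05, while that of HTA2 had 0.04 ± 0.06 and did not pass (adjusted p = 0.257). The HTA2 probe passed without saturated probes (0.06, adjusted p = 0.0289), with 60-nt probes only (0.08, adjusted p = 0.0251) and with local background subtraction and loess (0.12, adjusted p = 0.000849).

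Between the copies, HTA1 exceeded HTA2 by 0.59 ± 0.01 in coding probes and by 0.52 ± 0.05 in promoters. Both differences had the same sign on the 2 arrays and exceeded their SD. With 60-nt probes only, the promoter of the HTA2 pair came to 0.59, nearer that of HTA1.

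The genes of H3 and H4 also come in 2 divergent pairs, and one of them was dim in both channels. HHT1 (YBR010W), an H3 gene, and HHF1 (YBR009C), an H4 gene, lie on chromosome 2 with probes from 255628 to 256892, and their probes were among the dimmest on the arrays. Their 3 promoter probes run from the HHF1 side to the HHT1 side. The first, at 255628 to 255687, had signals of 449 and 432 in Cy5, against 480 and 457 in Cy3. The second, at 255980 to 256039, had 182 and 187 in Cy5, against 66.5 and 58.6 in Cy3. The third, at 256183 to 256242, had 21.1 and 17.4 in Cy5, against 14.5 and 10.4 in Cy3. The 3 probes thus became dimmer in both channels towards HHT1, on both arrays. For comparison, the median yeast probe had 1630 and 1648 in Cy5, against 1587 and 1584 in Cy3. The 1st percentile of Cy5 signals was 191 in replicate 1 and 179 in replicate 2, and that of Cy3 signals 98.3 and 89.1. The second promoter probe thus lay near or below the 1st percentile in both channels, and the third was far below it. The third was well above background in Cy5 on both arrays and in Cy3 on replicate 1 only, so it was left out. Its ratios were 0.51 and 0.74.

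The coding probe of HHT1, at 256658 to 256717, had signals of 266 and 237 in Cy5, against 181 and 164 in Cy3. Its downstream probe, at 256833 to 256892, had 560 and 527 in Cy5, against 178 and 171 in Cy3. These 2 and the dim pair in the promoter were the 4 histone gene probes whose Cy3 signal lay among the dimmest 2% of yeast probes on both arrays. HHF1 has no coding probe. The coding probe of the other H3 gene, HHT2, had 3354 and 3164 in Cy5, against 2683 and 2798 in Cy3, above the median yeast probe in both channels. Signals of different probes depend on the probe as well as on the DNA, so no ratio is formed between the copies' signals. Whether the strain carries the HHF1-HHT1 locus in the same amount as other loci was not tested, and the labels do not say.

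**Figure D2:**
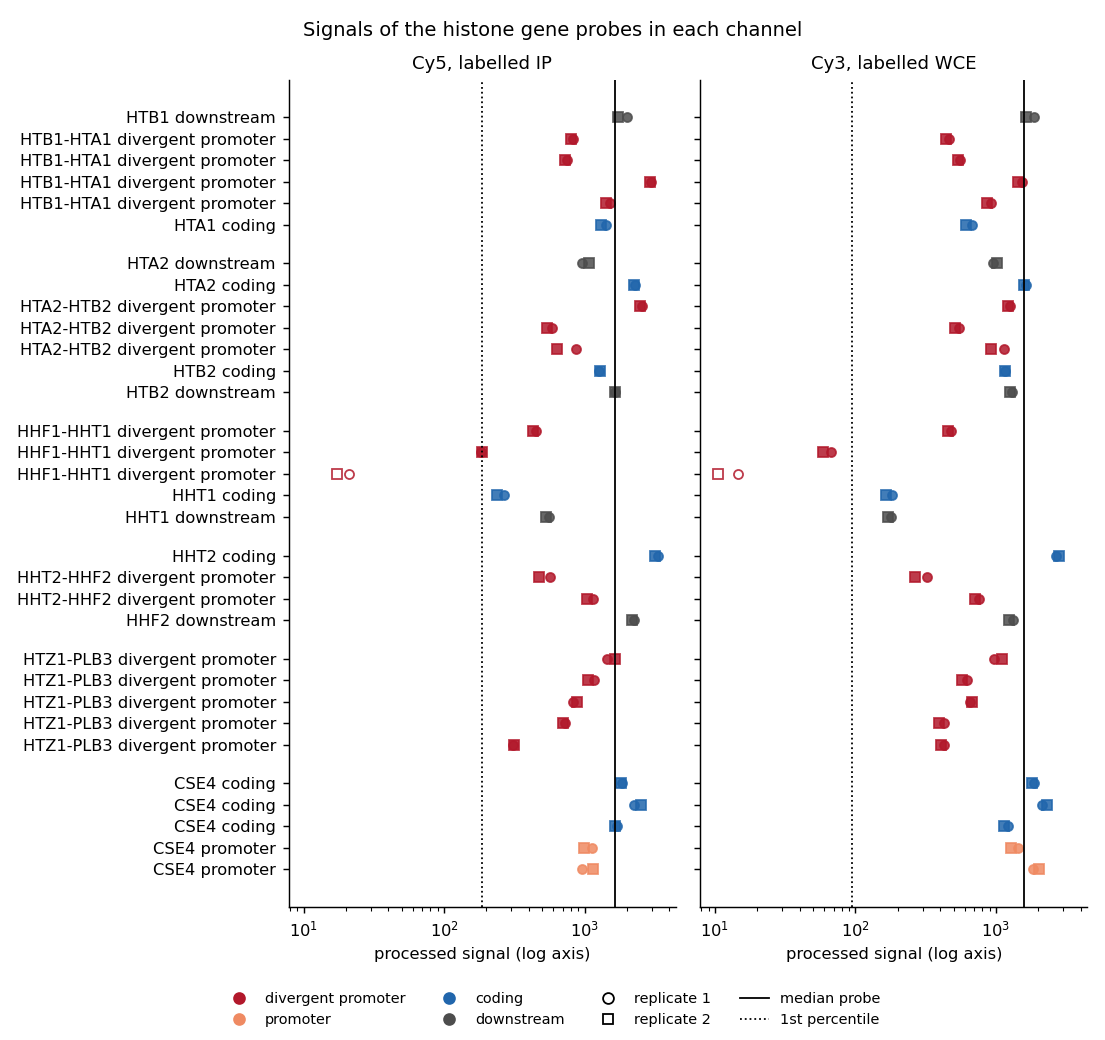
Processed signal (log axis) of each histone gene probe in Cy5 (labelled IP, left) and Cy3 (labelled WCE, right); circles are replicate 1 and squares replicate 2, the solid line is the signal of the median yeast probe, the dotted line the 1st percentile (each the mean of both arrays), and open symbols mark the probe left out. The dim pair of HHF1-HHT1 promoter probes sits left of all other histone gene probes in both channels, while the HHT2 coding probe sits right of the median in both.

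Dim as they were, the HHF1-HHT1 probes held the highest ratios of any histone gene. The probe downstream of HHT1 had 1.63 in both replicates, a 3.09-fold difference between channels, and 0.483% of 1862 downstream probes had a higher one. The second promoter probe had 1.43 in replicate 1 and 1.68 in replicate 2, with the largest SD of all 31 kept probes. The first promoter probe had -0.12 and -0.08 and was lower (limma adjusted p = 0.00907). The ratios of neighbouring probes in this promoter thus lay 1.65 apart, a range that 0.773% of the 388 divergent promoters with 2 kept probes reached. The first probe is a promoter probe by the array's annotation only, and whether it lies upstream of the HHF1 start codon was not checked, so the range and the promoter mean rest on that annotation. The call of the first probe was lost when centred on the mode (-0.12, adjusted p = 0.124) and with 60-nt probes only (-0.06, adjusted p = 0.0571). With local background subtraction and loess, chosen after seeing the data, it turned to 0.07 (adjusted p = 0.0128).

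The HHF1-HHT1 promoter as a mean of its 2 kept probes had 0.66 in replicate 1 and 0.80 in replicate 2. Both arrays put it above 0, at 0.73 ± 0.10 (limma adjusted p = 3.98e-107), and 11.7% of promoters had more. The HHT1 coding region had 0.53 in replicate 1 and 0.54 in replicate 2, at 0.54 ± 0.01 (adjusted p = 9.32e-114), with 4.08% of coding regions above it. As a single probe its adjusted p in limma was 1.98e-47. Ratios of dim probes spread widely: over the 459 kept nuclear probes as dim as these in Cy3 on both arrays, the median ratio was 0.20, the 5th percentile -0.79 and the 95th percentile 2.01. Of those 459, 9.15% had a higher ratio than the second HHF1-HHT1 promoter probe, 36.2% than the HHT1 coding probe and 8.28% than the HHT1 downstream probe. The part of dimness in these ratios was not tested.

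HHT2-HHF2 (YNL031C and YNL030W), the other H3-H4 pair, lies on chromosome 14 with probes from 575611 to 577092. Its promoter probe on the HHT2 side had signals of 571 and 470 in Cy5 against 322 and 264 in Cy3, and that on the HHF2 side had 1150 and 1045 in Cy5 against 757 and 704 in Cy3. Their ratios of 0.82 ± 0.02 and 0.58 ± 0.004 were both higher and lay 0.24 apart. A range of at least this size was found in 58.5% of the divergent promoters with 2 kept probes. The promoter had 0.69 in replicate 1 and 0.70 in replicate 2, at 0.70 ± 0.01 (limma adjusted p = 5.44e-99).

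The HHT2 coding probe had 0.30 in replicate 1 and 0.18 in replicate 2, at 0.24 ± 0.08. Its limma adjusted p was 1.64e-10 as a probe and 1.44e-24 as a coding region. It was saturated in Cy5 on both arrays, so this ratio is compressed, and it left no coding value for HHT2 when saturated probes were dropped. The probe downstream of HHF2, an H4 gene with no coding probe, had 2260 and 2168 in Cy5 against 1332 and 1237 in Cy3 and was higher at 0.78 ± 0.05. The promoters of HHT1 and HHT2 differed by 0.03 ± 0.09, which is within the spread between arrays and had opposite signs on the 2 arrays. Their coding probes differed by 0.30 ± 0.09, with HHT1 above HHT2 on both, though the HHT2 value is compressed by saturation and the HHT1 probe is dim.

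HTZ1 (YOL012C), the gene of H2A.Z, shares a divergent promoter with PLB3, a phospholipase gene, on chromosome 15, and has 5 promoter probes from 304013 to 305228 and no coding probe. From the HTZ1 side to the PLB3 side their ratios were 0.57 ± 0.02, 0.89 ± 0.02, 0.35 ± 0.06, 0.79 ± 0.08 and -0.42 ± 0.06. The first 4 were higher and the one nearest PLB3 was lower, with 311 and 312 in Cy5 against 423 and 407 in Cy3. The second, the highest in ratio, had 1171 and 1062 in Cy5 against 624 and 569 in Cy3. With local background subtraction and loess the last probe shrank to -0.21 and was still lower. The promoter had 0.40 in replicate 1 and 0.47 in replicate 2, at 0.44 ± 0.05 (limma adjusted p = 1.39e-40), and 28.2% of promoters had more. Its range of 1.32 was reached by 25.7% of the 70 divergent promoters with 5 kept probes. None of these probes can be assigned to HTZ1 rather than PLB3.

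CSE4 (YKL049C), the gene of centromeric H3, was the exception among the histone genes, with a promoter that was lower. It lies on chromosome 11, with coding probes from 345702 to 346242 and promoter probes from 346575 to 346879. The promoter probe nearer the gene had signals of 1123 and 993 in Cy5, against 1423 and 1289 in Cy3. The farther one had 965 and 1150 in Cy5, against 1837 and 2037 in Cy3. Cy3 was thus the brighter channel at both probes on both arrays. Their ratios were -0.37 ± 0.003 and -0.89 ± 0.09 (limma adjusted p = 3.13e-23 and 1.06e-126), and 0.400% of 5746 tandem promoter probes were below the second. The promoter had -0.66 in replicate 1 and -0.60 in replicate 2, at -0.63 ± 0.05 or 0.647-fold (adjusted p = 3.24e-81), and 99.4% of promoters had more.

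The 3 coding probes of CSE4 increased in ratio towards its promoter, with -0.01 ± 0.02, 0.08 ± 0.07 and 0.49 ± 0.04. The first did not pass (limma adjusted p = 0.903) and the others were higher. The call of the middle one (adjusted p = 0.0302) was lost when centred on the mode (0.07, adjusted p = 0.405), with local background subtraction (0.07, adjusted p = 0.103) and with loess added (0.04, adjusted p = 0.220). The probe nearest the promoter had 1690 and 1646 in Cy5 against 1208 and 1148 in Cy3. The coding region as a whole had 0.16 in replicate 1 and 0.22 in replicate 2, at 0.19 ± 0.04 (adjusted p = 4.34e-16), and 0.08 as a median over probes.

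By promoter, the loci ordered as HTB1-HTA1 at 0.74, HHF1-HHT1 at 0.73, HHT2-HHF2 at 0.70, HTZ1-PLB3 at 0.44, HTA2-HTB2 at 0.22 and CSE4 at -0.63. The first 3 did not differ beyond their spread, with gaps of 0.01 ± 0.07 and 0.03 ± 0.09 between neighbours in the order. The HHF1-HHT1 mean rests on 2 kept probes of opposite sign, the higher of them among the dimmest 2% in Cy3. The later gaps of 0.26 ± 0.04, 0.22 ± 0.06 and 0.85 ± 0.06 exceeded their SDs. Those SDs are over arrays and leave out the spread over probes, which ranged over 1.32 in HTZ1-PLB3 and 1.49 in HTA2-HTB2. With 60-nt probes only the HTA2-HTB2 mean rose, as given above, so its place in the order depends on the probes used. Counted by gene, 9 of 10 promoters were higher and 1 lower, where 70.8% of all 5175 promoters were higher and 16.3% lower. The pairs share their probes, so these 10 genes rest on 6 promoters, of which only that of CSE4 was lower. The median over the 10 genes, with a shared promoter entering for each gene, was 0.70, against 0.23 over all promoters. Over the 6 promoters the median lies between 0.44 and 0.70, the values of HTZ1-PLB3 and HHT2-HHF2.

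By coding region, the order was HTA1 at 1.08, HHT1 at 0.54, HTA2 at 0.48, HHT2 at 0.24, CSE4 at 0.19 and HTB2 at 0.13. The gap between HHT2 and CSE4, 0.05 ± 0.13, was within the spread, and that between HHT1 and HTA2 was 0.06 ± 0.02. The HHT1 probe is dim in both channels, and the HHT2 ratio is compressed by saturation in Cy5. The places of HHT1 and HHT2 in the order are therefore uncertain. All 6 were higher, where 37.3% of 5465 coding regions were higher and 45.8% lower, and their median was 0.36 against -0.02. All but CSE4 rest on 1 probe, as do other short genes. Over the 469 genes with 1 kept coding probe the median ratio was 0.22, and 70.4% of them were higher and 20.3% lower. Of these, 5.54% had a higher ratio than HTA1, 22.8% than HHT1, 26.0% than HTA2, 45.4% than HHT2 and 61.8% than HTB2. Set beside such genes, the coding values of HHT2 and HTB2 lay near the middle, though that of HHT2 is compressed by saturation and may be understated. The part of gene length in the coding values was not tested.

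**Figure D3:**
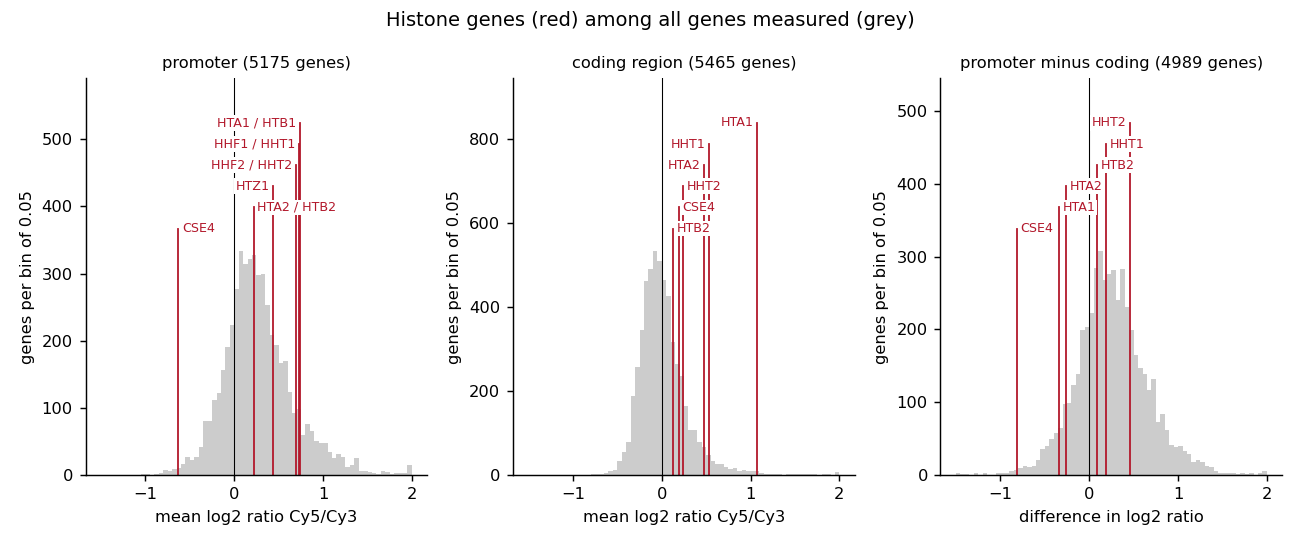
Histograms of the mean log2 ratio of all promoters (left) and coding regions (middle) and of the difference between them within a gene (right), in bins of 0.05, with red lines at the histone genes; values beyond the axis are counted in the outermost bins, and the line heights serve only to separate the names. HTA1 lies in the upper tail of the coding regions and CSE4 in the lower tail of the promoters and of the differences.

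Within a gene, the promoter ratio exceeded the coding ratio in 3 of the 6 histone genes with both regions and was below it in the other 3. Over all 4989 genes with both, 70.2% had a promoter above the coding region by this test, 18.8% one below it, 24.0% had a value below 0, and the median difference was 0.24. HHT2 had a difference of 0.39 in replicate 1 and 0.52 in replicate 2, at 0.46 ± 0.09 (limma adjusted p = 2.14e-05), HHT1 had 0.19 ± 0.10 (adjusted p = 0.00205) and HTB2 0.09 ± 0.07 (adjusted p = 0.0307). These 3 had the higher ratio in the promoter on both arrays. The HHT2 coding probe is saturated in Cy5, so its coding ratio is compressed and its difference may be overstated, with no unsaturated coding probe to set beside it. CSE4 had a difference of -0.82 on each array (adjusted p = 3.21e-07), and 0.521% of genes had a lower one. HTA1 had -0.34 ± 0.003 (adjusted p = 1.05e-05) and HTA2 -0.26 ± 0.04 (adjusted p = 6.86e-05), below 94.2% and 91.7% of genes. Thus both H2A genes had a higher ratio over the gene than in the promoter, each from 1 coding probe. The call of HTB2 was lost with local background subtraction (0.07, adjusted p = 0.0707) and its sign turned with the median over probes (-0.05, adjusted p = 0.161). That of HTA2 turned with 60-nt probes only, to 0.08 (adjusted p = 0.0192).

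Along the chromosome, the histone loci stood above or level with the genes around them, apart from CSE4. Probes of neighbouring genes within 3 kb were used for comparison, without a test. The 6 kept probes of HTB1-HTA1 averaged 0.68 and the 20 neighbouring ones -0.04. The 4 of HHT2-HHF2 averaged 0.60, against 0.02 over 14 neighbouring probes, and the 5 of HTZ1-PLB3 0.44, against -0.00 over 20. In these 3 loci the mean was above that of the neighbouring probes. The sets differ in class, since most neighbouring probes lay in coding regions and all HTZ1-PLB3 probes in the promoter, and the part of probe class in these differences was not tested. Some neighbouring regions were high too. The ADK1 promoter probe next to HTA1 had 0.81 in replicate 1 and 0.87 in replicate 2. Of the 3 probes of that promoter, 2 were higher and 1 lower. The YDR223W promoter, on the HTB1 side, averaged 0.41 ± 0.04. The probe downstream of YOL013W-B, on the HTZ1 side, had 0.73 ± 0.01. Others were low, such as the SIR4 coding region at -0.43 ± 0.02 and the HRD1 promoter at -0.28 ± 0.02.

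The other H3-H4 and H2A-H2B pairs also lay beside regions of high ratio. HHF1-HHT1 averaged 0.90 over 4 kept probes, against 0.35 over 14 neighbouring ones. Among those, the promoter of FLR1, a multidrug transporter gene, had 1.01 ± 0.03 over 3 probes. The lowest signals in the FLR1 promoter were 918 and 887 in Cy5, against 576 and 559 in Cy3. Every HHF1-HHT1 probe was dimmer than that in both channels. The promoter of IPP1, the inorganic pyrophosphatase gene on the other side, held 2 probes that were not kept. One of them had 14.3 and 13.6 in Cy5, against 10.6 and 10.8 in Cy3. The IPP1 probes between these and HHT1 were brighter, the dimmest with 972 and 1117 in Cy5, against 726 and 754 in Cy3. HTA2-HTB2 averaged 0.24 over 7 probes, against 0.17 over 20 neighbouring ones, among which the 6 promoter probes of ECM15 averaged 0.78 ± 0.05. CSE4 averaged -0.14 over 5 probes, against -0.00 over 20.

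**Figure D4:**
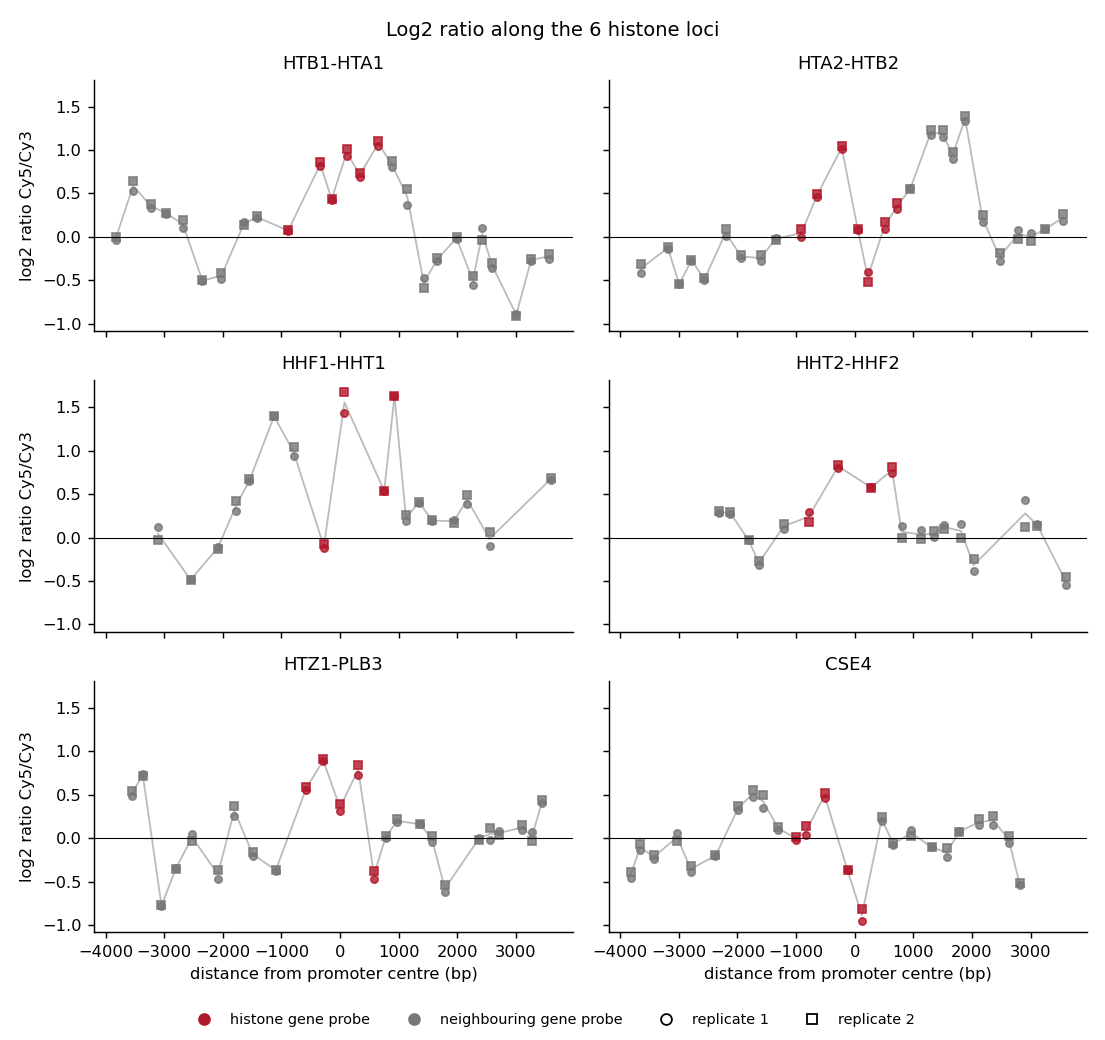
Log2 ratio of Cy5 (labelled IP) over Cy3 (labelled WCE) of kept probes along the 6 loci, by distance in bp from the centre of the histone gene promoter; red symbols are histone gene probes, grey symbols probes of neighbouring genes, circles replicate 1, squares replicate 2, and the grey line joins the means. The ratio is raised over HTB1-HTA1 and HHT2-HHF2, changes sign within HTA2-HTB2, HHF1-HHT1 and HTZ1-PLB3, and dips at the CSE4 promoter.

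Genes whose products act on histones were compared as lists, described by counts and medians beside all genes. Among 12 regulators of histone genes, 7 of 11 promoters measured were higher and 3 lower, where 70.8% and 16.3% of all promoters were, with a median of 0.24, against 0.23 over all promoters. Of their coding regions 2 of 12 were higher and 6 lower, where 37.3% and 45.8% of all coding regions were, with a median of -0.05, against -0.02 over all coding regions. The highest was SPT10, the activator of the histone promoters, with 0.23 ± 0.02 (limma adjusted p = 9.75e-23), and the lowest SWI6, a shared subunit of SBF and MBF, with -0.37 ± 0.02 (adjusted p = 3.51e-57). The list's promoter median was thus close to that of all genes.

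Among 15 genes of histone chaperones, import, assembly and degradation, 6 of 14 promoters were higher and 3 lower, with a median of 0.05, where 70.8% and 16.3% of all promoters were and the median was 0.23. Of their coding regions 4 of 15 were higher and 9 lower, with a median of -0.14, where 37.3% and 45.8% of all were and the median was -0.02. NAP1, a chaperone of H2A and H2B, had the highest coding ratio, 0.27 ± 0.08, and KAP114, which imports H2A and H2B into the nucleus, the lowest, -0.29 ± 0.02. ASF1, an H3-H4 chaperone that belongs to this list and to the regulators, had the highest promoter ratio of both, 1.18 ± 0.02 over 5 probes. Its coding region had 0.03 ± 0.01 and did not pass (limma adjusted p = 0.207).

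For the 13 genes of H2A.Z deposition and Cse4 handling, 6 of 12 promoters were higher and 5 lower, with a median of 0.08, against 70.8%, 16.3% and 0.23 over all promoters. Of their coding regions 6 of 13 were higher and 3 lower, with a median of 0.04, against 37.3%, 45.8% and -0.02 over all coding regions. SWC5, a subunit of the SWR1 complex that deposits H2A.Z and named AOR1 on the array, had the highest coding ratio, 0.37 ± 0.04. YAF9, another subunit, had the lowest, -0.50 ± 0.02. HHO1, the linker histone gene, had a pattern like CSE4 in sign: its coding region was higher at 0.61 ± 0.03 (limma adjusted p = 4.18e-146) and its promoter lower at -0.09 ± 0.02 (adjusted p = 0.00682).

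**Figure D5:**
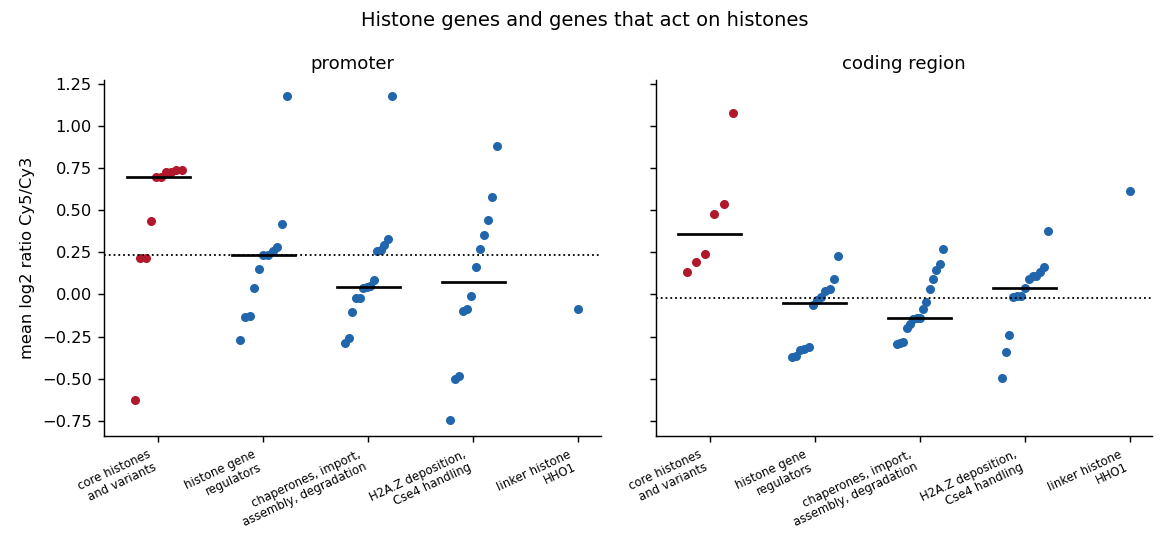
Mean log2 ratio of Cy5 over Cy3 per gene for the promoters (left) and coding regions (right) of the histone genes (red) and of 4 lists of genes that act on histones (blue); black bars are list medians and the dotted line is the median of all genes measured. The histone genes' medians, 0.70 in promoters and 0.36 in coding regions, lie above the dotted line, and those of the 3 longer lists lie nearer to it. A shared promoter enters for each of its genes. All histone promoters but that of CSE4 are divergent, a class whose probes had a median of 0.32. Most histone coding regions rest on 1 probe and most of the lists' on more. The part of these differences was not tested.

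These calls rest on the scanner's processed signals. With normexp background correction in their place, 0 of the 31 histone gene probes, 0 of the 10 promoters and 0 of the 6 coding regions passed in limma, and at an unadjusted p under 0.05 it was 3 probes, 2 promoters and 2 coding regions, all higher. Agreement between the arrays was then r = 0.285, and 0.967 with loess added. The background that normexp fitted, 27316 to 35341, was close to the median net signal of 34228 to 36613. The measured local background was far lower, with medians of 64 to 87.5 per channel and array. With plain subtraction of the local background r was 0.991.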

How the data were processed

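Spot intensity values of 2 two-colour tiling arrays came from Agilent's Feature Extraction software, version 9.1.3.1, per the file headers, which name the design 014810. The files' log10 ratio column was not used here, and per the file headers it is of red over green. The deposited value table holds log2 ratios equal to those of the processed signals within 5.00e-06 (medians 0.03 and -0.00), which settles its scale and direction, and it was not centred. The sources used here do not give the genome build of the probe coordinates. Per the labels' protocols, up to 75 ng of precipitated DNA was amplified linearly and 3 µg of amplified RNA labelled.

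Log2 ratios of processed Cy5 over Cy3 signals were shifted so that each array's median was 0, and no loess was applied. Probes marked non-uniform or as population outliers in either channel on either array, or with Cy3 not well above background on both, were left out. Of the 32 histone gene probes, none was marked and 1 was left out as dim. Saturated spots were kept. Control spots were left out. Gene values were means of at least 1 kept coding or 1 kept promoter probe, both genes of a divergent pair taking their shared promoter. Tests against 0 used limma 3.58.1 (lmFit, eBayes; R 4.3.3), adjusted by Benjamini-Hochberg over each whole table and a threshold of 0.05. On simulated data for 40890 probes, 100% of 200 probes shifted by 0.5 were recovered at a simulated SD of 0.05, and 5.21% of the calls were false. The shift is large beside that SD, so this checks the procedure only and not the recovery of smaller ratios. Python 3.11.15 with pandas 2.3.3 and matplotlib 3.10.9 was used for summaries and figures.

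All 10 histone genes are named with every probe, the genes within 3 kb of them as context, and of each list HHO1 or the highest and lowest coding region; ASF1 was added after its values were seen. The members and lists were chosen with earlier results of these data known. Names, locus tags and gene order came from the R64 gene table, and no coordinate of it is printed. The number of arrays, 2, limits the precision. Alternatives are given at the end.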

Additional observations from a re-analysis of the deposited data

How the results depend on the processing

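Of the alternatives tried for the histone genes, normexp, with or without loess, ended the most calls. As given above, the background it fitted lay far above the measured local background. With normexp, and with normexp and loess, 0 probes, 0 coding regions, 0 promoters and 0 differences of promoter minus coding passed in either direction (limma). At an unadjusted p under 0.05, normexp gave 3 probes, 2 coding regions, 2 promoters and 1 difference, all higher, and normexp with loess gave 0 probes, 2 coding regions higher, 0 promoters and 1 difference lower. Under normexp the sign turned for probe 5 of HTA2-HTB2 (0.094), the HHT2 coding region and its probe (-0.14), probe 1 of HHF1-HHT1 (0.25), probe 5 of HTZ1-PLB3 (0.23), the middle CSE4 coding probe (-0.19), the CSE4 coding region (-0.00061) and the differences of HHT1 (-0.027) and HTA2 (0.036). With loess added it turned for the differences of HHT1 (-0.00803), HHT2 (-0.076) and HTA1 (0.034). The settings with local background or 60-nt probes were chosen after seeing the data. Local background subtraction with loess turned probe 1 of HHF1-HHT1 (0.070), and 60-nt probes only gave 3 lower probes of 29 in place of 5 of 31 and turned the difference of HTA2 (0.075). The median over probes turned the difference of HTB2 (-0.049). Requiring 2 coding probes left CSE4 alone, with 1 coding region higher and its difference lower, so 0 were higher and 1 lower. Centring on the mode ended the call of 5 of 53 results and local background subtraction that of 3, and neither turned any. No centring, no filter on probes and both channels well above background ended no call.

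Without 1 array or the other, which allows no test, 25 to 26 of 31 probes lay above 0 and 5 to 6 below it, 6 of 6 coding regions above, 9 promoters above and 1 below, and 3 differences on each side. No paired analysis was possible because there is 1 group. Without a dye swap a dye effect cannot be told apart from the precipitation. Only 6 of the 10 genes have a coding probe, and dim probes limit HHF1-HHT1.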
